A study of Mus musculus with 24 samples.

Results

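The genes described here encode 7 proteins of gluconeogenesis, the pathway that makes glucose from lactate, glutamine, glycerol and other precursors. They were chosen by symbol: Pcx, Pck1 and Pck2 for the entry of pyruvate, Fbp1 for the fructose-bisphosphatase step, and G6pc, G6pc3 and Slc37a4 for the release of glucose from glucose-6-phosphate. The files held 55335 genes, of which 16092 were tested, and 7 of 7 enzymes were among those tested. RNA of whole kidneys was sequenced from 24 mice, 6 in each of 4 groups. The groups cKOm and cKOf were male and female Pex5lox/lox/Pax8-rtTA/LC1 mice, in which doxycycline (DOX) induces a Cre recombinase through the Pax8 promoter, active in the renal tubule. The groups Ctrlm and Ctrlf were their male and female Pex5lox/lox littermates. All mice were on the C57BL/6J background and all, controls included, received DOX for 2 weeks from the age of 8 weeks. Kidneys were taken 4 weeks after the last DOX, at the age of 14 weeks. The labels give Zeitgeber time 9 (hours after lights on) for the tissue and Zeitgeber time 3 for the experiments in general. Because whole kidneys were extracted, RNA from cells outside the tubule, where the promoter is not active, was measured as well.

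In the kidney, gluconeogenesis takes place in the proximal tubule, which draws on lactate, glutamine and glycerol and is, with the liver, the source of newly made glucose in the body. Pyruvate is carboxylated in mitochondria and turned into phosphoenolpyruvate, fructose-bisphosphatase drives the pathway past the step that phosphofructokinase makes irreversible in glycolysis, and glucose-6-phosphatase in the endoplasmic reticulum frees the sugar. The steps in between are shared with glycolysis and run in either direction.

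Library depth ran from 19376152 to 28470831 counts on genes per kidney (median, 21592602). Levels are given in CPM, a gene's counts relative to the total of its library, with totals corrected by edgeR's TMM method. A floor of 3 counts corresponded to 0.105 CPM in the deepest and 0.155 CPM in the shallowest library, for counting error only. The enzyme with the fewest reads, Pck2, still had at least 228 counts in every kidney. In bulk tissue, fewer cells of a type and less RNA per cell cannot be told apart.

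A pair of control libraries stood apart from the rest. Ctrlf replicate 5 held counts on 22778 genes and Ctrlm replicate 2 on 22560, while the other 22 kidneys held counts on 19304 to 21028. They were also the deepest libraries, with 27401081 and 28470831 counts against at most 25240390 in the others. Mitochondrial genes took 13.6% of the counts in Ctrlf replicate 5 and 16.3% in Ctrlm replicate 2, against 14.8% in Ctrlm replicate 5 and at least 18.3% in the remaining kidneys. In cKOm replicate 4, 58.5% of reads lay on genes and 34.8% had more than 1 match in the genome, against 63.9 to 66.0% and 26.9 to 30.5% in the other 23 kidneys. Results of the enzymes that rest on these kidneys are given with and without them, and these sets of kidneys to leave out were chosen after the data had been seen.

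Pex5 (ENSMUSG00000005069; GRCm38 chromosome 6, 124396816 to 124415067, minus strand) was examined first as a check of the labels. Its reads were counted over all exons and from all cells. In males the lowest, median and highest levels were 49.1, 53.3 and 62.8 CPM in Ctrlm and 41.8, 43.0 and 47.3 CPM in cKOm mice. Every cKOm kidney lay below every Ctrlm kidney. In females they were 43.0, 48.2 and 61.7 CPM in Ctrlf and 38.0, 44.1 and 48.5 CPM in cKOf mice, and the groups overlapped. Groups were compared by edgeR's quasi-likelihood test across all tested genes, with p values corrected after Benjamini and Hochberg across the tests of males and of females at once and a threshold of 0.05. The log2 fold change, cKO against Ctrl, was -0.31 in males (SE 0.08, edgeR adjusted p = 0.0219) and -0.21 in females (SE 0.08, edgeR adjusted p = 0.177), with an interaction of genotype and sex at an adjusted p of 0.754. Without the kidneys Ctrlm replicate 2 and Ctrlf replicate 5 the values were -0.28 (edgeR adjusted p = 0.0175) and -0.14 (0.352). The male call was lost without Ctrlm replicate 2 alone (edgeR adjusted p = 0.0656) and without cKOm replicate 4 (0.0504), within a range of 0.00495 to 0.0656 over the fits that left out 1 kidney. It was also lost with the hepatocyte score (0.126) and the proximal tubule score (0.372) of the cell type markers as a covariate. In these and all other settings except the fits without 1 kidney, the male log2 fold change lay between -0.34 and -0.24. The paper found less Pex5 mRNA in cKO kidneys of both sexes and almost no peroxisomes in their proximal tubules by electron microscopy. Hardly any PEX5 protein was left in cKOm kidneys, while a reduced amount could be seen in cKOf kidneys. Some full-length Pex5 mRNA also remained in cKOf mice, for which the paper proposes incomplete excision. Sex and the extent of deletion therefore cannot be told apart here.

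In males, Pcx, Fbp1 and G6pc fell in cKOm mice, by 0.51, 0.38 and 0.71 on the log2 scale, while Pck1, Pck2, G6pc3 and Slc37a4 did not pass the threshold. These were 3 of 7 enzymes, 0 higher and 3 lower, against 9.05% of all tested genes called in either direction, 4.14% higher and 4.90% lower. The 3 enzymes also passed with DESeq2, with limma-voom and at an unadjusted p under 0.05, as did 25.1% of all tested genes at such a p. With the hepatocyte or the proximal tubule marker score (the mean of scaled log2 CPM over marker genes of that cell type) as a covariate only 1 of them, Pcx, passed. The fold changes of Fbp1 and G6pc stayed close to their size with the hepatocyte score and were smaller with the proximal tubule score. The median log2 fold change of the 7 enzymes was -0.36, and that of all tested genes was 0.01. In females the edgeR test called 0 of 7 enzymes, against 0.851% of all tested genes (0.391% higher and 0.460% lower). At an unadjusted p under 0.05 there was 1 in females, Pcx, against 6.73% of all tested genes. DESeq2 also called Pcx, while limma-voom called 0. The median over the enzymes in females was -0.15, and over all tested genes 0.00. The interaction of genotype and sex, which tests whether the difference itself differed between males and females, passed for 0 of 7 enzymes in edgeR, DESeq2 and limma-voom, against 2.31% of all genes in edgeR (0.820% higher and 1.49% lower). Only Pcx had an unadjusted p under 0.05 for it, as did 13.4% of all tested genes. So the larger number of calls in males did not come with a tested difference between the sexes for any of the 7 enzymes.

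**Figure D1:**
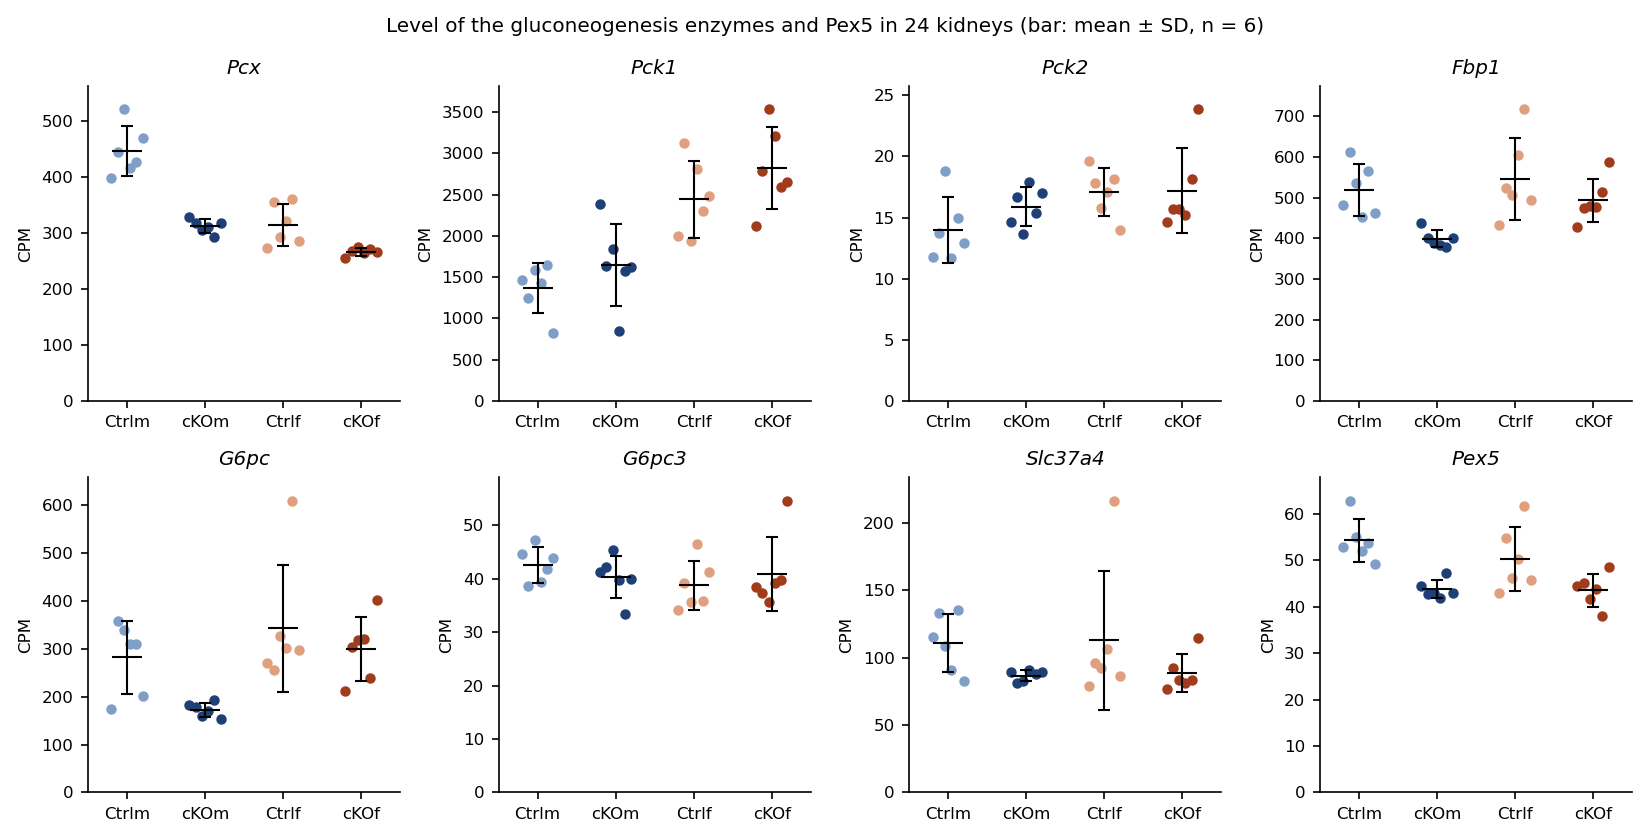
Level of the 7 enzymes and of Pex5 in CPM (vertical axis, from 0) in each of the 24 kidneys, by group, with bars for the mean ± SD of 6 kidneys. For Pcx and Fbp1 the 6 cKOm kidneys lie below the 6 Ctrlm kidneys, and for G6pc and Slc37a4 Ctrlf replicate 5 lies far above the other Ctrlf kidneys, at 609 and 216 CPM.

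Pcx (ENSMUSG00000024892; chromosome 19, 4510472 to 4621752, plus strand) encodes pyruvate carboxylase, the mitochondrial enzyme that makes oxaloacetate from pyruvate. Its lowest, median and highest levels were 398, 436 and 521 CPM in Ctrlm and 293, 315 and 330 CPM in cKOm mice (329.7 in replicate 1). The 6 cKOm kidneys lay within a narrow range below all 6 Ctrlm kidneys. Such a separation was found in males for 7.38% of all tested genes, 3.69% in the lower direction, and for 2 of the 7 enzymes. The mean was 446 ± 44.3 CPM in Ctrlm and 313 ± 12.6 CPM in cKOm mice (SD, n = 6; two-sided exact permutation test over all arrangements of the kidneys, p = 0.00216, the smallest that 6 against 6 can give). On the log2 scale the fold change was -0.51 (SE 0.07, edgeR adjusted p = 3.6e-05). It passed the threshold in each of the 37 alternative settings, with an adjusted p from 3.7e-10 to 0.0410.

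In females Pcx ran from 273 over 307 to 360.1 CPM in Ctrlf and from 255 over 267 to 275 CPM in cKOf mice. No enzyme had cKOf and Ctrlf kidneys fully apart, as was so for 0.559% of all tested genes (0.267% higher and 0.292% lower), but of the 6 cKOf kidneys 5 lay below all Ctrlf kidneys, and the sixth, replicate 3, lay just above Ctrlf replicate 1. The mean was 315 ± 37.1 CPM in Ctrlf and 267 ± 6.88 CPM in cKOf mice (SD, n = 6; exact permutation test, two-sided, p = 0.00433). At -0.24 (SE 0.07), the female log2 fold change had an edgeR adjusted p of 0.0594 and did not pass. It passed without Ctrlf replicate 1 (edgeR adjusted p = 0.0271), Ctrlf replicate 6 (0.0431) or Ctrlm replicate 3 (0.0494) and with DESeq2 (0.0275), and over all alternatives the adjusted p ran from 0.0271 to 0.322. Without Ctrlf replicate 5 it was -0.20 (edgeR adjusted p = 0.145). The interaction of -0.27 had an unadjusted p of 0.0146 and an edgeR adjusted p of 0.216.

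Pck1 (ENSMUSG00000027513; chromosome 2, 173153048 to 173159273, plus strand) encodes the cytosolic phosphoenolpyruvate carboxykinase, a major point of hormonal control of the pathway. Its levels in males were 820.4, 1450.2 and 1652 CPM in Ctrlm and 845.0, 1629 and 2383 CPM in cKOm mice. Each male group held 1 kidney far below the rest of its group, Ctrlm replicate 6 and cKOm replicate 4, and 2 cKOm kidneys lay above all Ctrlm kidneys. In females they were 1933, 2397 and 3121 CPM in Ctrlf and 2126, 2726 and 3535 CPM in cKOf mice, again with 2 cKOf kidneys above all controls. The log2 fold change was 0.27 in males (SE 0.18, edgeR adjusted p = 0.516; two-sided exact permutation test, p = 0.266). In females it was 0.21 (SE 0.18, edgeR adjusted p = 0.654; two-sided exact permutation test, p = 0.197). Neither difference exceeded the spread between kidneys, which was wide for this gene, and without cKOm replicate 4 the male value was 0.40 (edgeR adjusted p = 0.182, the lowest over all alternatives, whose highest was 0.802), while without Ctrlm replicate 6 it was 0.13 (0.796).

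Pck2 (ENSMUSG00000040618; chromosome 14, 55540266 to 55551242, plus strand) encodes the mitochondrial form of the same enzyme. Its lowest, median and highest levels were 11.7, 13.3 and 18.8 CPM in Ctrlm, 13.7, 16.02 and 17.9 in cKOm, 13.95, 17.4 and 19.6 in Ctrlf and 14.7, 15.7 and 23.9 in cKOf mice. The groups overlapped widely in both sexes. The log2 fold change was 0.19 in males (SE 0.13, edgeR adjusted p = 0.526) and 0.01 in females (SE 0.12, edgeR adjusted p = 0.983). Among the 7 enzymes it was the only one whose exons overlapped those of another gene, the opposite-strand gene Gm10876, over 53 of 7806 exon bases, and that gene had a median of 0 counts.

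Fbp1 (ENSMUSG00000069805; chromosome 13, 62864753 to 62888282, minus strand) encodes fructose-1,6-bisphosphatase, the counterpart of phosphofructokinase. In males its lowest, median and highest levels were 453, 509 and 612 CPM in Ctrlm and 379, 395 and 438 CPM in cKOm mice. All cKOm kidneys lay below all Ctrlm kidneys, with cKOm replicate 1 the highest of its group. The mean was 518 ± 63.5 CPM in Ctrlm and 399 ± 21.02 CPM in cKOm mice (SD, n = 6; exact permutation test, two-sided, p = 0.00216). In males the fold change was -0.38 on the log2 scale (SE 0.10, edgeR adjusted p = 0.0227). It stayed past the threshold without the pair of kidneys that stood apart (-0.35, edgeR adjusted p = 0.0162) but not without Ctrlm replicate 2 alone (0.0655) or Ctrlm replicate 5 alone (0.0556), nor with the hepatocyte (0.154) or the proximal tubule score (0.486) as a covariate. The fold change itself stayed close to its size with the hepatocyte score and was smaller with the proximal tubule score.

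Fbp1 in females ran from 433 over 515 to 717 CPM in Ctrlf and from 429 over 478 to 587 CPM in cKOf mice. The top of the Ctrlf range was replicate 5, followed by replicate 4 at 605 CPM, and the groups overlapped. At -0.15 (SE 0.10) the log2 fold change did not pass (edgeR adjusted p = 0.527; two-sided exact permutation test, p = 0.288), and without Ctrlf replicate 5 it was -0.05 (edgeR adjusted p = 0.877). The interaction was -0.23 (edgeR adjusted p = 0.507), and -0.35 without Ctrlf replicate 5 (0.172, the lowest over all alternatives, whose highest was 0.666).

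G6pc (ENSMUSG00000078650; chromosome 11, 101367561 to 101377903, plus strand) encodes the catalytic unit of glucose-6-phosphatase in liver and kidney. In males it was measured at 175, 309 and 358 CPM (lowest, median and highest) in Ctrlm and at 154, 174 and 192 CPM in cKOm mice. The cKOm kidneys lay close together, below 5 of the 6 Ctrlm kidneys, and the remaining one, Ctrlm replicate 1 at 175 CPM, lay inside their range. The mean was 282 ± 75.5 CPM in Ctrlm and 173 ± 14.2 CPM in cKOm mice (SD, n = 6; exact permutation test, two-sided, p = 0.00866), and all 6 cKOm kidneys lay below the Ctrlm median. G6pc fell by a log2 fold change of -0.71 (SE 0.19, edgeR adjusted p = 0.0249). Without the pair of control kidneys that stood apart it was -0.65 (edgeR adjusted p = 0.0100). The call was lost without Ctrlm replicate 2 (edgeR adjusted p = 0.0670), Ctrlm replicate 3 (0.0641), Ctrlm replicate 5 (0.0532), cKOm replicate 3 (0.0561) or cKOm replicate 6 (0.0578), within a range of 0.00263 to 0.0670 over the fits that left out 1 kidney, and with the hepatocyte (0.119) or the proximal tubule score (0.480) as a covariate. With the hepatocyte score the fold change stayed close to that without it, and with the proximal tubule score it was smaller.

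In females G6pc was measured at 255, 299 and 609 CPM in Ctrlf and at 213, 312 and 402 CPM in cKOf mice. The highest value was that of Ctrlf replicate 5, and the other 5 Ctrlf kidneys lay between 255 and 327 CPM, inside the cKOf range. The female difference of -0.20 (SE 0.19, log2) did not pass (edgeR adjusted p = 0.693; two-sided exact permutation test, p = 0.602). Without Ctrlf replicate 5 it turned to 0.05 (edgeR adjusted p = 0.944), so its direction rested on that kidney. The interaction was -0.51 (SE 0.27, edgeR adjusted p = 0.419), and -0.78 without Ctrlf replicate 5 (edgeR adjusted p = 0.0516, the lowest over all alternatives, whose highest was 0.570).

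G6pc3 (ENSMUSG00000034793; chromosome 11, 102189620 to 102194081, plus strand) encodes the glucose-6-phosphatase found in most tissues. Its lowest, median and highest levels were 38.7, 42.8 and 47.4 CPM in Ctrlm, 33.5, 40.6 and 45.4 in cKOm, 34.2, 37.5 and 46.5 in Ctrlf and 35.7, 38.88 and 54.6 in cKOf mice. All groups overlapped. The log2 fold change was -0.08 in males (SE 0.10, edgeR adjusted p = 0.775) and 0.08 in females (SE 0.10, edgeR adjusted p = 0.791). The female value turned to -0.03 without cKOf replicate 6, the kidney at 54.6 CPM.

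Slc37a4 (ENSMUSG00000032114; chromosome 9, 44396852 to 44402968, plus strand) encodes the transporter that brings glucose-6-phosphate into the endoplasmic reticulum. Its levels were 82.5, 112 and 135 CPM in Ctrlm and 80.8, 88.3 and 90.5 CPM in cKOm mice. All 6 cKOm kidneys lay below the Ctrlm median, and 2 of them below every Ctrlm kidney. In males the log2 fold change was -0.36 (SE 0.18, edgeR adjusted p = 0.325; two-sided exact permutation test, p = 0.0238). The edgeR test passed without Ctrlf replicate 5 (-0.38, adjusted p = 0.0463), a female kidney that enters the shared estimate of the spread, but not without both control kidneys that stood apart (-0.32, adjusted p = 0.122), and the adjusted p ran from 0.0463 to 0.897 over all alternatives.

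In Ctrlf mice Slc37a4 was at 78.8, 94.3 and 216 CPM, and in cKOf mice at 76.5, 83.5 and 115 CPM. As for G6pc, Ctrlf replicate 5 held the top value, and the other 5 Ctrlf kidneys reached at most 107 CPM. The female difference was -0.35 on the log2 scale (SE 0.18, edgeR adjusted p = 0.340; two-sided exact permutation test, p = 0.318), and -0.05 without Ctrlf replicate 5 (edgeR adjusted p = 0.909). The interaction was -0.01 with all kidneys (edgeR adjusted p = 0.994) and -0.33 without that kidney (edgeR adjusted p = 0.362).

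**Figure D2:**
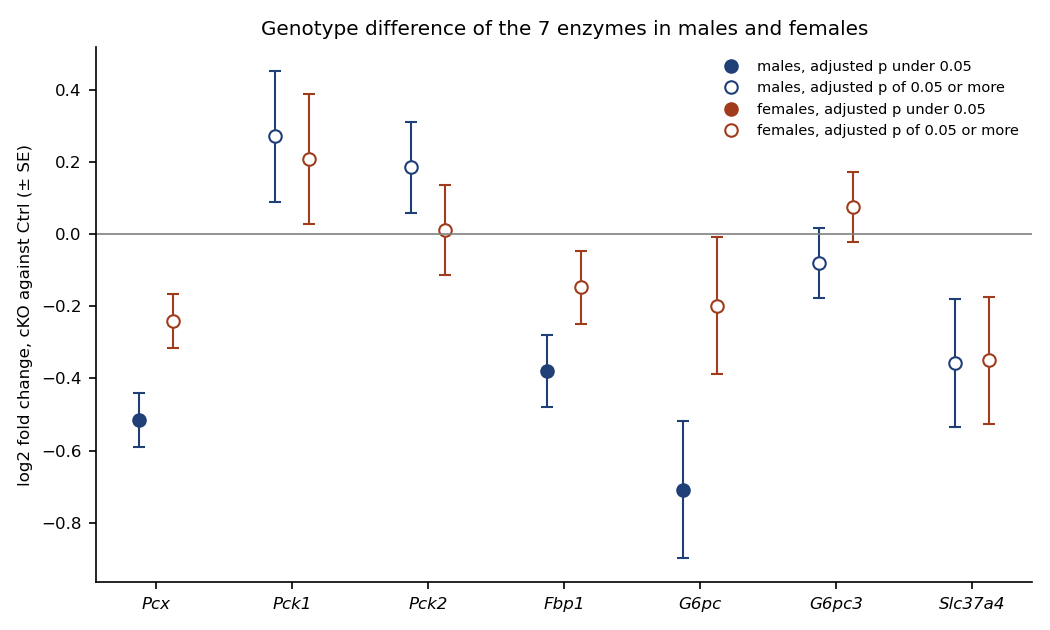
Log2 fold change, cKO against Ctrl, of the 7 enzymes (horizontal axis) in males and females, with bars of 1 SE from edgeR, 6 kidneys per group. Filled symbols, which stand for an edgeR adjusted p under 0.05, are found at Pcx, Fbp1 and G6pc in males, at -0.51, -0.38 and -0.71.

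To set the enzymes side by side, CPM were divided by the length of each gene's exons in kilobases. All annotated exons were counted, 7806 bases for Pck2 and 3429 for Pck1. This can exceed the length of the transcripts present, and the level per length is then too low. On this scale the order of mean levels was Pck1, Fbp1, G6pc, Pcx, Slc37a4, G6pc3 and Pck2 in each of the 4 groups. In Ctrlm mice the means ran from 399 CPM per kb for Pck1 and 305 for Fbp1 through 117 for G6pc, 93.9 for Pcx, 38.8 for Slc37a4 and 19.1 for G6pc3 to 1.79 for Pck2. In Ctrlf mice Pck1 stood at 713 and Fbp1 at 321 CPM per kb. Kidneys of neighbours in this order overlapped for Pck1 and Fbp1 and for G6pc and Pcx in Ctrlm and in cKOm mice, and for Pcx and Slc37a4 in Ctrlf mice, and for no other neighbours.

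Between forms of the same enzyme, the level per length of Pck1 exceeded that of Pck2 in every kidney, with median ratios of 229 (Ctrlm), 228 (cKOm), 332 (Ctrlf) and 367 (cKOf). The ratio of G6pc to G6pc3 had medians of 6.70 (3.61 to 8.53) for Ctrlm kidneys, 3.91 (3.26 to 5.29) for cKOm, 6.97 (5.97 to 15.7) for Ctrlf and 7.15 (5.09 to 8.24) for cKOf. Its top value was again that of Ctrlf replicate 5. By mean CPM, Pck1 had rank 48 (Ctrlm), 34 (cKOm), 19 (Ctrlf) and 15 (cKOf) among the 16092 tested genes. Pck1 alone made up 49.2, 61.6, 64.0 and 70.1% of the summed CPM of the 7 enzymes in Ctrlm, cKOm, Ctrlf and cKOf mice, and the sum itself overlapped between cKO and Ctrl kidneys in both sexes (2092 to 3157 CPM in Ctrlm, 1859 to 3478 in cKOm, 3111 to 4411 in Ctrlf and 3152 to 4742 in cKOf mice).

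Among controls the sexes differed in Pck1 and Pcx, in opposite directions. In this comparison edgeR (Benjamini-Hochberg over both sex tests) called 2 of 7 enzymes, against 15.7% of all tested genes (8.17% higher and 7.48% lower in Ctrlm mice). Pck1 was lower in Ctrlm than in Ctrlf mice, with a log2 fold change of -0.84 (SE 0.18, edgeR adjusted p = 0.00189), and Pcx was higher, with 0.50 (SE 0.07, edgeR adjusted p = 1.7e-05). For both, the 6 Ctrlm and 6 Ctrlf kidneys did not overlap (two-sided exact permutation test, p = 0.00216), a separation found for 7.35% of all tested genes (3.95% higher and 3.40% lower). Pck2, at -0.29 (edgeR adjusted p = 0.141), passed only without Ctrlm replicate 3 (0.0332), and Pck1 missed the threshold with the hepatocyte marker score as a covariate (0.0624). In that setting and all others except the fits without 1 kidney, the log2 fold change of Pck1 lay between -0.86 and -0.81. Over all alternatives the adjusted p ran from 0.0332 to 0.311 for Pck2 and from 6.1e-05 to 0.0624 for Pck1.

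Between cKOm and cKOf mice, 4 of 7 enzymes passed, against 9.72% of all tested genes (4.80% higher and 4.92% lower in cKOm mice). Pck1 (-0.77, SE 0.18, edgeR adjusted p = 0.00394), G6pc (-0.79, SE 0.19, edgeR adjusted p = 0.00485) and Fbp1 (-0.31, SE 0.10, edgeR adjusted p = 0.0420) were lower in cKOm mice. Pcx was higher (0.23, SE 0.07, edgeR adjusted p = 0.0400). The kidneys of cKOm and cKOf mice did not overlap for G6pc and Pcx, as for 6.77% of all tested genes (3.53% higher and 3.24% lower), and for Pck1 and Fbp1 5 of 6 cKOm kidneys lay below all cKOf kidneys. Pck1 and G6pc passed in all 24 fits that left out 1 kidney but not with the proximal tubule score as a covariate (-0.78, edgeR adjusted p = 0.0775, and -0.48, 0.326). Fbp1 passed in 12 of them and missed (edgeR adjusted p from 0.0502 to 0.104) without Ctrlf replicate 4, Ctrlm replicate 3, or any of replicates 2 to 6 of cKOf or cKOm mice. Pcx passed in 13 and missed (0.0514 to 0.0814) without Ctrlm replicate 6, any cKOf kidney but replicate 3, or any cKOm kidney but replicate 5. Pcx also missed without the 3 kidneys that stood apart (0.0583). Over the other alternatives the adjusted p reached 0.6255 for Fbp1, which also missed with the adipocyte score (0.0502), and 0.115 for Pcx. These sex tests share their kidneys with the genotype tests and are not independent of them.

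For the enzymes called in males, the genes with the most similar profile over all 24 kidneys were sought among 9439 genes with a mean of at least 10 CPM. The measure was the root mean square difference of log2 CPM after each gene was centred on its own mean, so smaller means more alike. For Pcx, whose own root mean square deviation was 0.29, they were Mep1a at 0.13, Ugt3a2 at 0.14 and Ctdspl at 0.15. For Fbp1, with a deviation of 0.23 of its own, genes close to it were Slc25a3 at 0.12 and Mgat4b at 0.13. For G6pc, with a deviation of 0.48, the nearest genes were Ak4 at 0.29, Esam at 0.30 and Fbp1 itself at 0.31, so even the nearest gene differed from G6pc by more than the genes named for Pcx and Fbp1 did from these.

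The sequence before the start of the genes was then read, since Pcx, Fbp1 and G6pc fell in males while Pck1 did not. RefSeq promoter windows of GRCm38.p6, with 250 bases before and 50 after an annotated start, were found for 7 of 7 enzymes (10 windows) and compared with all 32851 windows. A total of 10 motifs was searched on both strands, and no match in the 7 genes overlapped another. The letters TTACGTNA, a form of the cAMP response element, were present in 0.898% of all windows, and among the enzymes in Pck1 (TTACGTCA, chr2:173152980-173152987) and G6pc (TTACGTAA, chr11:101367554-101367561, which reads the same on both strands). The palindrome TGACGTCA (1.79% of windows), the forkhead elements TATTTTG (4.36%) and TGTTTAC (3.65%) and the letters AGGTCA repeated after a spacer of 1 base (0.0396%) were found in none of the 7. The forkhead element TGTTTTG (6.28%) was found in Pck2 and G6pc, the HNF1 element GTTAAT (7.10%) in Pck1 and G6pc, and the glucocorticoid receptor element TGTTCT (6233 of the windows) in G6pc3. TATAAA (13.6%) was found in G6pc and Slc37a4, and CCAAT (37.4%) in Pck2, G6pc, Fbp1 and Pcx. Such a match describes letters in a window and shows no binding. The stretches printed here are those of the 3 enzymes that fell in males and of Pck1, each of 100 bases, 95 before the earlier of the GENCODE M21 and RefSeq starts and 5 from it, read 5′ to 3′ on the strand of the gene (plus for Pck1, G6pc and Pcx at chr2:173152953-173153052, chr11:101367466-101367565 and chr19:4510377-4510476, minus for Fbp1 at chr13:62888278-62888377). Capitals mark matches to any of the 10 motifs on either strand, and Fbp1 has none in this stretch. For G6pc the RefSeq start lies downstream of the GENCODE start: the first base of TTACGTAA is 162 bases before the RefSeq start, and TATAAA, 29 bases before it, lies outside the printed stretch.
Pcx: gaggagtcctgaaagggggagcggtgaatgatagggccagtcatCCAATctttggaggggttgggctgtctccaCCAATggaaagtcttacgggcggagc
Fbp1: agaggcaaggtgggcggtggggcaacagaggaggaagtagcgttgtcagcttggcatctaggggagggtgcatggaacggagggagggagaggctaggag
G6pc: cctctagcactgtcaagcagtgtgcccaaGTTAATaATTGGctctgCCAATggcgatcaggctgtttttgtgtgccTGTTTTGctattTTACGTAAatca
Pck1: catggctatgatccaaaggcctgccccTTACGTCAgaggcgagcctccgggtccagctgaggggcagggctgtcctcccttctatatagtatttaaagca

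Other genes of glucose metabolism were followed as a set of lists, with 88 genes, of which 87 were tested (G6pc2 was below the filter). The lists were chosen with earlier results of these data known, so their shares of calls are a description and no independent test. In males 20 of the 87 passed, or 22.99%, against 9.05% of all tested genes, with 5 higher and 15 lower in cKOm mice. Their median log2 fold change was 0.03, near that of all genes at 0.01. In females 1 of 87 passed, or 1.15%, against 0.851% of all tested genes. For 13 of the 20 genes called in males the cKOm and Ctrlm kidneys did not overlap, or 65%, against 62.7% of all 1456 genes called in males. The interaction passed for 5 of the 87 (Ldhd, Gpt, Khk, Pdk1 and Sik1), or 5.75%, against 2.31% of all tested genes, and for no other gene called in only 1 sex. With the proximal tubule marker score as a covariate the male count was 7, against 673 of all 16092 tested genes. With the hepatocyte score it was 15, against 835 of all 16092. Without the pair of control kidneys that stood apart the interaction passed for 2 higher and 8 lower genes, against 124 higher and 304 lower of all 16054 genes tested then.

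Genes that feed the pathway gave most of the lower calls. Of 23 genes of substrate supply, 11 fell in males (against 4.90% of all tested genes) and 0 rose, with a median of -0.32, and in females 1 fell (against 0.460%), with a median of -0.07. Ldhd, a mitochondrial D-lactate dehydrogenase, fell from 1085 ± 197 CPM in Ctrlm to 402 ± 51.4 CPM in cKOm mice (SD, n = 6), that is by -1.43 on the log2 scale (SE 0.11, edgeR adjusted p = 1.2e-09). In females it was at 304 CPM in Ctrlf and 263 CPM in cKOf mice, and its interaction passed (-1.23, edgeR adjusted p = 9.8e-06). Khk, the ketohexokinase that starts fructose use, fell in males from a median of 340.2 to 181 CPM (-0.90, SE 0.12, edgeR adjusted p = 8.8e-06), and Gpt, an alanine transaminase, from 15.3 to 6.60 CPM (-1.22, SE 0.18, edgeR adjusted p = 6.3e-05). Both had an interaction past the threshold, Khk with -0.71 (edgeR adjusted p = 0.0170) and Gpt with -1.14 (0.0132). For each of these 3 genes all 6 cKOm kidneys lay below all 6 Ctrlm kidneys.

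The other genes of substrate supply that fell in males were Gk, glycerol kinase (-0.64, edgeR adjusted p = 5.6e-04), the glycerol-3-phosphate dehydrogenases Gpd1 (-0.36, 0.0163) and Gpd2 (-0.74, 0.00146), Ldha, a subunit of lactate dehydrogenase (-0.55, 7.8e-04), and Sord, sorbitol dehydrogenase (-0.43, 0.00244). Slc5a8, a carrier of lactate and other monocarboxylates (-0.69, edgeR adjusted p = 6.2e-04), Slc25a10, the mitochondrial dicarboxylate carrier (-0.46, 0.00686), and Gpt2, the mitochondrial alanine transaminase (-0.40, 0.0329), fell too. Gpt2 was the gene that also fell in females, from 84.7 to 55.0 CPM (medians), with a log2 fold change of -0.75 (SE 0.11, edgeR adjusted p = 5.3e-05), no overlap of the kidneys and a call in each of the 37 alternative settings. Its male call was lost without Ctrlm replicate 1 (edgeR adjusted p = 0.0702), 2 (0.0795) or 3 (0.0563) or cKOm replicate 1 (0.0750), 2 (0.0945), 3 (0.0651) or 5 (0.0563), and that of Gpd1 without Ctrlm replicate 3 (0.0528). The Gpt2 call was also lost without the pair of control kidneys that stood apart (-0.38, 0.0648), with the replicate block (-0.39, 0.0679), with the proximal tubule score (-0.43, 0.209) and with the hepatocyte score (-0.25, 0.408). The Gpd1 call was also lost with the proximal tubule score (-0.43, edgeR adjusted p = 0.0744) and with the hepatocyte score (-0.27, 0.223). Over all alternatives the adjusted p of Gpt2 and Gpd1 reached 0.408 and 0.223. With the proximal tubule score the male calls of Ldha (-0.49, edgeR adjusted p = 0.0662), Gk (-0.53, 0.0744), Gpd2 (-0.70, 0.0647), Sord (-0.33, 0.181), Slc25a10 (-0.52, 0.0616, and -0.32, 0.230 with the hepatocyte score) and Slc5a8 (-0.59, 0.0726) were lost as well, though several of these fold changes stayed near those without the score, so that of the 11 genes only Ldhd, Gpt and Khk passed in every setting. The gene with the highest level of the list was Ldhb, at 1756 CPM in Ctrlm and 1788 CPM in cKOm mice. Genes of glycolysis often have processed pseudogenes, and reads with several matches were not counted on genes, so the levels of Ldha and Tpi1, and those of Gapdh (47.6 CPM in Ctrlm and 48.4 in cKOm mice), Pgk1 (11.7 and 8.60 CPM) and Pgam1 (16.8 and 14.8 CPM), are uncertain.

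Of the 15 genes of reversible steps followed, 1 rose and 2 fell in males (against 4.14 and 4.90% of all tested genes), with a median of -0.06. Aldoc rose (0.55, SE 0.11, edgeR adjusted p = 0.00260), and Tpi1 (-0.39, SE 0.10, 0.0128) and Mdh1 (-0.36, SE 0.11, 0.0437) fell. With the proximal tubule and the hepatocyte score, the calls of Aldoc (0.46 and 0.46, edgeR adjusted p = 0.166 and 0.0560), Tpi1 (-0.47 and -0.39, 0.0600 and 0.0710) and Mdh1 (-0.35 and -0.44, 0.269 and 0.0586) were lost, with fold changes of about the same size. The call of Mdh1, cytosolic malate dehydrogenase, held in 21 of the 37 alternative settings. It was lost without any one of Ctrlm replicates 1, 2 and 5, cKOf replicates 1 to 4 and all cKOm kidneys but replicate 5 (edgeR adjusted p from 0.0501 to 0.134). It was also lost without the 3 kidneys that stood apart (0.0876) and when every gene with a count was tested (0.0502). In females edgeR called 0 of the 15 (0.851% of all tested genes), with 1 at an unadjusted p under 0.05 (6.73%) and 0 by DESeq2 and limma-voom. Of the tissue paralogs, Fbp2, the fructose-bisphosphatase of muscle, rose in males from a median of 12.4 to 23.7 CPM (0.92, SE 0.17, edgeR adjusted p = 7.5e-04), with no overlap of the kidneys. Its direction was opposite to that of Fbp1, and its call was lost with the proximal tubule score (0.74, edgeR adjusted p = 0.109). The female value was 0.32 (edgeR adjusted p = 0.358), and the interaction was not past the threshold (0.60, edgeR adjusted p = 0.224).

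Among 9 genes at the branch from pyruvate to acetyl-CoA, 2 rose and 2 fell in males, against 4.14 and 4.90% of all tested genes. Pdk4, a kinase that shuts off pyruvate dehydrogenase, rose from 33.8 ± 28.0 CPM in Ctrlm to 150.4 ± 37.9 CPM in cKOm mice (SD, n = 6), or by 2.15 on the log2 scale (SE 0.37, edgeR adjusted p = 3.4e-04), and 1 Ctrlm kidney at 90.3 CPM reached into the cKOm range. The female value was 1.05 (SE 0.36, edgeR adjusted p = 0.102), and the interaction did not pass (1.10, edgeR adjusted p = 0.338). Pdk1 rose in males (0.56, SE 0.09, edgeR adjusted p = 2.4e-04) and was at 0.03 in females (0.919). Its interaction of 0.53 (0.0287) passed in 26 of 36 settings. It missed with the hepatocyte score (0.47, edgeR adjusted p = 0.113) and with the replicate block (0.52, 0.0522). Without 1 kidney it was lost for Ctrlf replicate 2 (0.0517) or 3 (0.0561), Ctrlm replicate 1 (0.0569) or 5 (0.0507), cKOf replicate 2 (0.0532) or 5 (0.0536) and cKOm replicate 3 (0.0607) or 5 (0.0633). In males Pdk3 (-0.69, SE 0.13, 6.5e-04) and the subunit Dlat (-0.23, SE 0.07, 0.0322) fell. The Dlat call was lost without Ctrlm replicate 1 (edgeR adjusted p = 0.0606) or 5 (0.0714) or cKOm replicate 2 (0.0537), 3 (0.0838), 4 (0.0730) or 6 (0.0565). It was also lost when every gene with a count was tested (-0.26, edgeR adjusted p = 0.0600) and with the proximal tubule score (-0.17, 0.447). The highest level of the list was that of Pdha1, at 629.9 CPM in Ctrlm and 629 CPM in cKOm mice. In females edgeR and DESeq2 called 0 of the 9 and limma-voom 1, with 1 at an unadjusted p under 0.05, while edgeR called 0.851% of all tested genes and 6.73% had such a p.

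Of 22 regulators of the pathway, 1 passed in males with edgeR, against 9.05% of all tested genes, with 2 by DESeq2, 1 by limma-voom and 6 at an unadjusted p under 0.05 (25.1% of all tested genes). Sik1, a salt-inducible kinase that restrains the CREB coactivators, rose from 63.2 ± 11.3 CPM in Ctrlm to 164 ± 24.5 CPM in cKOm mice (SD, n = 6), 1.37 on the log2 scale (SE 0.11, edgeR adjusted p = 6.2e-09). In females it was -0.14 (edgeR adjusted p = 0.615), and the interaction of 1.52 passed (edgeR adjusted p = 1.7e-06). The most abundant regulator was Hnf4a, at 903 CPM in Ctrlm and 1038 CPM in cKOm mice. In females edgeR, DESeq2 and limma-voom called 0 of the 22, with 2 at an unadjusted p under 0.05, against 0.851% of all tested genes called by edgeR and 6.73% at such a p.

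In the remaining lists no gene passed in either sex with edgeR, DESeq2 or limma-voom. Of 13 tested glycolytic counterparts (hexokinases, phosphofructokinases, pyruvate kinases and their regulators), 5 had an unadjusted p under 0.05 in males and 0 in females, against 25.1 and 6.73% of all tested genes. Their median log2 fold change was 0.25 in males, where 11 of 13 lay above 0 (52.2% of all tested genes did), and -0.04 in females. The most abundant of them were Pkm, at 199 CPM in Ctrlm and 218 CPM in cKOm mice, and Hk1. Against the same shares, 0 of the 4 glucose transporters for exit and reuptake had an unadjusted p under 0.05 in either sex, and Slc5a2 was the most abundant at 326 CPM in Ctrlm mice. Of 13 clock genes, 2 had an unadjusted p under 0.05 in males (25.1% of all tested genes) and 1 in females (6.73%), with medians of 0.03 and -0.10, and Tef was the most abundant at 271 CPM in Ctrlm mice.

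**Figure D3:**
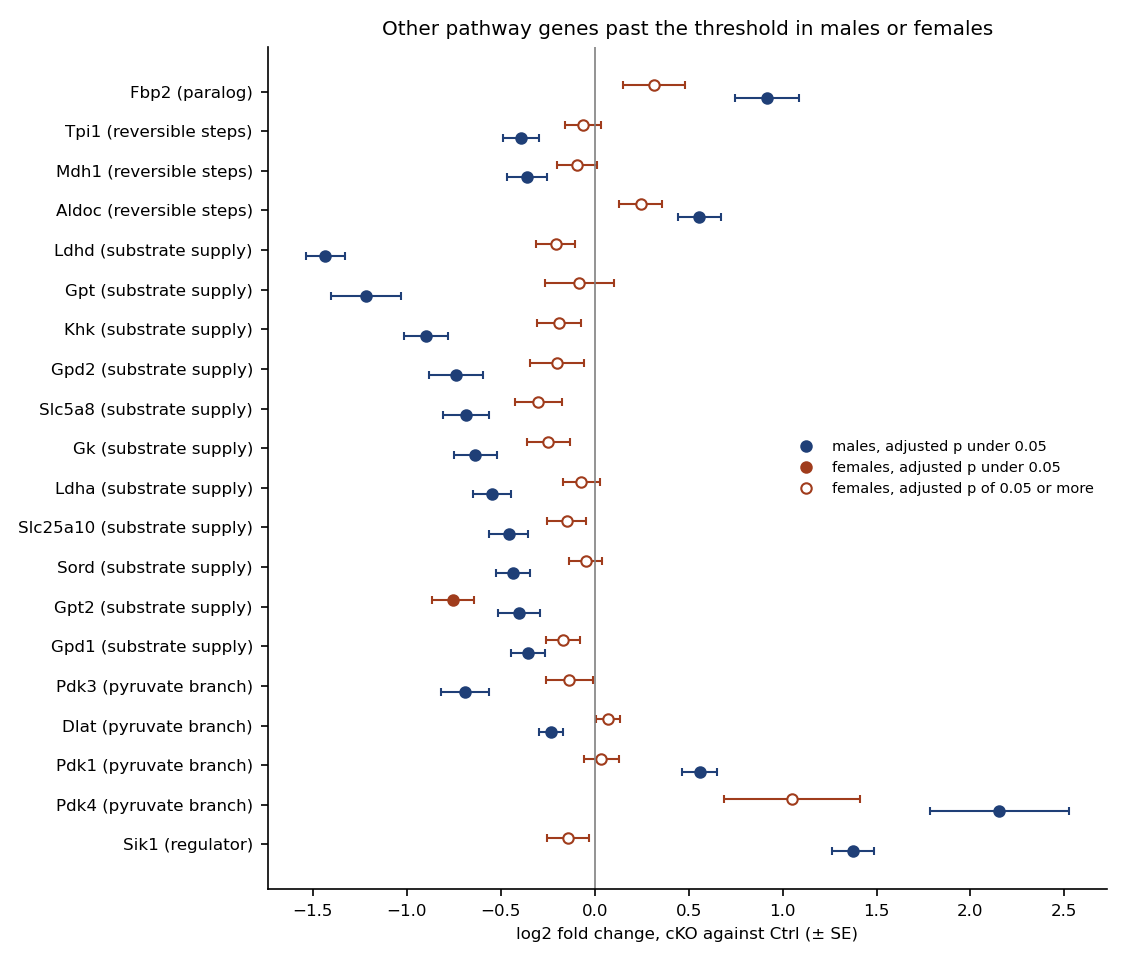
Log2 fold change, cKO against Ctrl (horizontal axis), of the genes of the other lists that passed the edgeR threshold in males or females, with bars of 1 SE and 6 kidneys per group. Filled symbols stand for an edgeR adjusted p under 0.05, and Gpt2, at -0.40 in males and -0.75 in females, is filled in both sexes.

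The tissue was checked against markers of its cell types. All 10 proximal tubule markers were tested, none was at 0, and Slc34a1 was the most abundant with 25.3% of their sum. Their summed level was 12348 to 14013 CPM in Ctrlm (median, 13007) and 10814 to 11806 CPM in cKOm mice (10955), with no overlap. In females it was 12732 to 14489 CPM in Ctrlf (13467) and 12195 to 13240 CPM in cKOf mice (12695). In males edgeR called 5 of the 10 lower (against 4.90% of all tested genes), with a median of -0.22: Lrp2 (-0.33), Slc34a1 (-0.33), Aqp1 (-0.38), Slc3a1 (-0.27) and Ass1 (-0.83). In females 1 fell (against 0.460%), Ass1 (-0.42, edgeR adjusted p = 0.0140), with a median of -0.09. The interaction passed for 0 of the 10 with edgeR, DESeq2 and limma-voom, with 3 at an unadjusted p under 0.05 (13.4% of all tested genes). The other 5 did not pass in males with edgeR, while DESeq2 and limma-voom each called 6 of the 10. Of the 10, 3 lay above 0 in males (Slc5a12, Slc4a4 and Miox), so the lower sum was not shared by all markers. With the proximal tubule score (the mean of the markers' scaled log2 CPM) as a covariate, the male log2 fold change was -0.36 for Pcx (edgeR adjusted p = 0.0410), -0.24 for Fbp1 (0.486) and -0.44 for G6pc (0.480). The score itself ran from -0.407 to 0.400 in Ctrlm and from -0.770 to -0.265 in cKOm kidneys, with little overlap, so these fits separate score and genotype only in part.

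Transcripts used as hepatocyte markers were present in the kidneys as well, unequally between groups. Whether they came from liver tissue or from cells of the kidney was not tested. All 16 hepatocyte markers were tested and none was at 0. Alb made up 39.9% of their sum. The sum was 991, 1006, 1077, 586, 226 and 144 CPM in Ctrlm replicates 1 to 6, and 142 to 204 CPM in cKOm mice except for replicate 4 at 624 CPM. It was 89.9 to 143 CPM in Ctrlf and 64.5 to 148 CPM in cKOf mice. EdgeR called all 16 higher in Ctrlm than in Ctrlf mice, with a median log2 fold change of 3.37, against 8.17% of all tested genes called higher. In this comparison DESeq2 called 15 of 16 and limma-voom 10. In males edgeR called 4 of 16 lower and 1, Serpina1a, higher, against 4.90 and 4.14% of all tested genes, with a median of -1.90. The interaction of Serpina1a, 1.75, had an edgeR adjusted p of 0.0154. DESeq2 called 4 and limma-voom 6 of 16 in males, and 13 had an unadjusted p under 0.05 (25.1% of all tested genes). In females edgeR, DESeq2 and limma-voom called 0 of 16, with a median of 0.04 and 2 at an unadjusted p under 0.05 (6.73%). In the same order of Ctrlm replicates, G6pc stood at 175, 358, 339, 309, 309 and 201 CPM. With the hepatocyte score as a covariate, the male log2 fold change was -0.52 for Pcx (edgeR adjusted p = 8.2e-04), -0.35 for Fbp1 (0.154) and -0.72 for G6pc (0.119). Over all alternatives the adjusted p of Fbp1 ran from 0.00362 to 0.486 and that of G6pc from 0.00263 to 0.480.

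**Figure D4:**
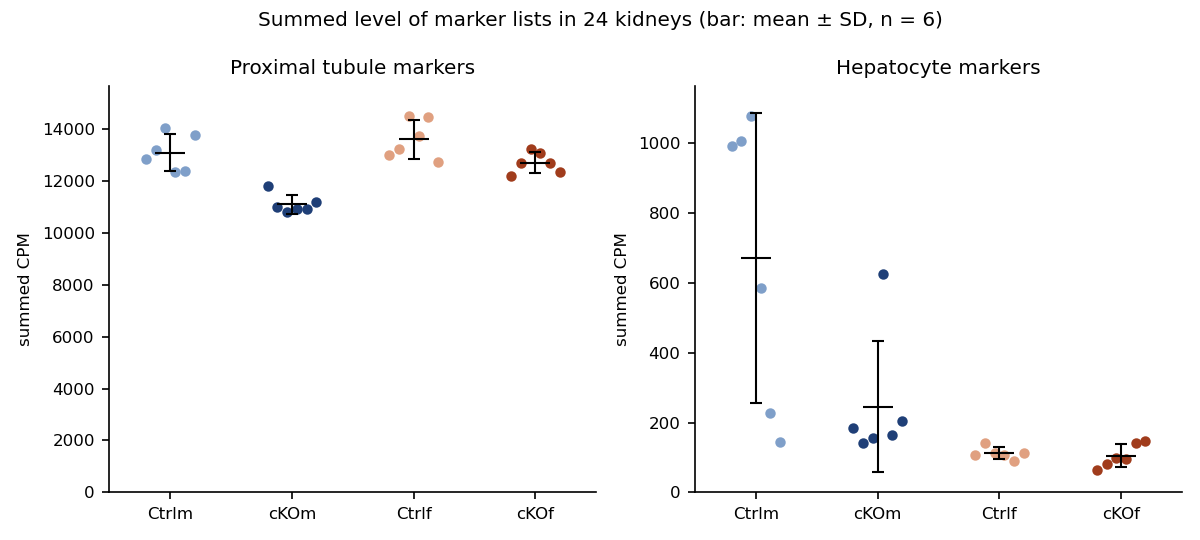
Summed CPM (vertical axes, from 0) of 10 proximal tubule markers and of 16 hepatocyte markers in each kidney of the 4 groups, with bars for the mean ± SD of 6 kidneys. The sum of the proximal tubule markers was lower in every cKOm than in every Ctrlm kidney, and that of the hepatocyte markers ranged from 144 to 1077 CPM among Ctrlm kidneys.

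Of the adipocyte markers, 5 of 6 were tested, and Cfd gave 64.9% of their sum, which was at most 70.7 CPM in every kidney except Ctrlf replicate 6 at 230.4 CPM. Of the adrenal cortex markers, 1 of 6, Star, was tested, the sum was at most 3.23 CPM, and Cyp11b2 was at 0 in every kidney. EdgeR, DESeq2 and limma-voom called 0 of these in either genotype test, with 0 at an unadjusted p under 0.05. Markers of the other cells of the kidney were all present, with median sums in Ctrlm mice of 3868 CPM for the thick limb (4 genes, Umod the most abundant), 1820.1 CPM for the distal convoluted tubule (4, Slc12a3), 140.5 CPM for principal cells (4, Aqp2), 156 CPM for intercalated cells (4, Slc26a4), 421 CPM for podocytes (4, Podxl), 321 CPM for endothelium (4, Kdr) and 107 CPM for macrophages (5, Csf1r). In cKOm mice 1 thick limb marker was higher (Slc12a1), 1 intercalated cell marker was higher (Slc26a4) and 1 lower (Slc4a1), and 1 macrophage marker was lower (Csf1r), against 4.14% of all tested genes higher and 4.90% lower. All 5 macrophage markers lay below 0 in both sexes, with medians of -0.49 in males and -0.44 in females. In cKOf mice Slc4a1 was lower, and the edgeR, DESeq2 and limma-voom interaction passed for none of the thick limb, intercalated cell and macrophage markers. The part of these cell types in the levels of the enzymes was not tested.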

How the data were processed

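The deposited counts per gene, made by the authors, were used as given. By the submitters' processing notes, reads were trimmed with cutadapt 1.8, aligned to GRCm38 with STAR 2.5.3a and counted with HTSeq 0.9.1. Whether counting used the strand of the TruSeq Stranded libraries is not given in the sources used here. The 5 closing lines of each file, which held 34.0 to 41.5% of reads, were not used. GENCODE M21, which gave positions and exon lengths, holds 55154 of the 55335 gene IDs. A gene was tested if 1 kidney or more reached 1 CPM (16092 genes).

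Library sizes were scaled by TMM and a model of 4 groups was fitted by edgeR 4.0.16 (quasi-likelihood, prior count 2) in R 4.3.3. The SE is the size of the log2 fold change divided by the square root of the quasi-likelihood F. Adjustment was by Benjamini-Hochberg, over both genotype tests, over both sex tests, and over all genes for the interaction. Exact permutation tests compared mean CPM over all arrangements of the kidneys. Limma 3.58.1 and DESeq2 1.42.0 gave other fits, Python 3.11.15 with pandas 2.3.3, numpy 2.4.6 and matplotlib 3.10.9 the tables and figures. A marker score is the mean over a list of scaled log2 CPM. The 37 alternatives were 24 fits without 1 kidney and 13 others: RLE scaling, 2 other filters, limma-voom, DESeq2, each sex alone, adjustment within each test, a replicate block, 3 marker scores (hepatocyte, adipocyte, proximal tubule) and 2 sets of kidneys left out, added after the data had been seen.

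The enzymes, the other lists (tissue paralogs, reversible steps, glycolytic counterparts, substrate supply, pyruvate branch, regulators, glucose exit and reuptake, clock) and the markers were chosen by symbol from general knowledge, with earlier results of these data known. Results of 3 further genes are not reported here.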

Additional observations from a re-analysis of the deposited data

Results flagged for a closer look

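A kidney was singled out when Dixon's test set it apart from the other 5 of its group. By chance this happens in about 1 in 20 groups, and 28 groups of the 7 enzymes were tested. G6pc was at 609 CPM in Ctrlf replicate 5, and at most 327 CPM in the other Ctrlf kidneys. Slc37a4 was at 216 CPM in the same kidney, and at most 107 CPM in the others. G6pc3 was at 54.6 CPM in cKOf replicate 6, and at most 39.8 CPM in the others. Fbp1 was at 438 CPM in cKOm replicate 1, and at most 400.5 CPM in the others.

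The difference between cKO and Ctrl mice itself differed between the sexes for 5 of the 87 pathway genes tested, against 2.31% of all tested genes. The paper proposes incomplete excision of Pex5 in cKOf mice, so sex and the extent of deletion cannot be told apart. The interaction (edgeR, Benjamini-Hochberg) was -1.14 for Gpt (adjusted p = 0.0132, and 0.0704 with the hepatocyte score), -0.71 for Khk (0.0170), -1.23 for Ldhd (9.8e-06), 0.53 for Pdk1 (0.0287, and 0.0507 to 0.0633 without any of 8 kidneys, 0.113 with the hepatocyte score and 0.0522 with the replicate block) and 1.52 for Sik1 (1.7e-06).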

How the results depend on the processing

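The number of enzymes called in males was 3, and 1 (Pcx) with the hepatocyte score and 1 (Pcx) with the proximal tubule score. Without 1 kidney it was 1 to 4. In females it was 0, and 1 with DESeq2, and 0 to 1 without 1 kidney. Between Ctrlm and Ctrlf mice it was 2, and 1 (Pcx) with the hepatocyte score, and 2 to 3 without 1 kidney. Between cKOm and cKOf mice it was 4, and 2 (Pck1 and G6pc) with every gene with a count, with adjustment within each test, with the replicate block and with the hepatocyte score, 3 with the adipocyte score (Fbp1 lost) and 3 without the 3 kidneys (Pcx lost), 1 (Pcx) with the proximal tubule score, and 2 to 4 without 1 kidney. The interaction stayed at 0.

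Replicate numbers were not treated as pairs: over 36 pairs of the same number the correlation was -0.199 to 0.120. Kidneys of different numbers were not compared in this way, so the check cannot exclude a pairing. With the replicate block 3 enzymes passed in males (edgeR adjusted p of 2.4e-04 for Pcx, 0.0384 for Fbp1 and 0.0351 for G6pc) and 0 in females.

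Signs turned for small differences. In females Pck2 was -0.0029 with limma-voom and -0.00045 with the replicate block, and G6pc was 0.0452 and 0.0485 without the 2 sets of kidneys. The Slc37a4 interaction was 0.0807 with the proximal tubule score. Between Ctrlm and Ctrlf mice Fbp1 was 0.0160 with the proximal tubule score, and Slc37a4 was 0.0431 with limma-voom, 0.0217 with the replicate block, 0.0116 with the adipocyte score, 0.15 with the proximal tubule score and 0.23 and 0.23 without the 2 sets. Between cKOm and cKOf mice Slc37a4 was 0.23 with the proximal tubule score.

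Without 1 kidney, signs turned in these ranges: in females Pck2 -0.11 to 0.0537, G6pc -0.30 to 0.0483 and G6pc3 -0.0250 to 0.13; for the interaction Pck1 -0.0725 to 0.20 and Slc37a4 -0.33 to 0.0803. For Ctrlm against Ctrlf they were Fbp1 -0.13 to 0.0384 and Slc37a4 -0.11 to 0.29, and for cKOm against cKOf Pck2 -0.16 to 6.3e-04, G6pc3 -0.0550 to 0.0819 and Slc37a4 -0.0709 to 0.0556.

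Of all genes, 1456 were called in males, 835 with the hepatocyte score and 673 with the proximal tubule score. In females 137 were called, 43 with adjustment within each test and 84 with the proximal tubule score.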
